A study of Mus musculus with 8 samples.

Results

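The Hox genes of the mouse lie in 4 clusters, Hoxa, Hoxb, Hoxc and Hoxd, and DNA methylation at 38 of them was followed in colon organoids. The genes were taken by name, with the annotated span of each in GRCm38 and 2 kb on either side, and every 200 bp tile that overlapped such a window was counted once per cluster. The windows held 236 of the 53375 distinct tiles listed anywhere in the series, and the 38 genes stand among 21887 protein-coding genes. Hoxa contributed 70 tiles from 10 genes, Hoxb 30 tiles from 10 genes, Hoxc 59 tiles from 9 genes and Hoxd 77 tiles from 9 genes.

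Methylation was measured by reduced representation bisulfite sequencing, which reads the CpG-rich fragments left by a restriction digest. The organoids came from crypts of the first 2.5 cm of the proximal colon of male mice aged about 40 days that were heterozygous for a Cre-activable BrafV600E allele (Braf+/LSL). The V600E change keeps the BRAF kinase switched on without an upstream signal. In the first group, lentiviral Cre had switched on BrafV600E, and the organoids were taken at 5 months of culture after selection in Base medium, which lacks stem-cell niche factors. The second group carried the lentiviral backbone alone, named EV for empty vector, and had been cultured for 5 months in full medium with Wnt3a, R-Spondin, Noggin and EGF. The third group held EV organoids of 12 months (line 1) or 14 months (line 3), and the fourth EV organoids of 2 months, both in full medium. All 8 libraries were grown for a final 3 weeks in the named medium. Each group holds 1 library of organoid line 1 and 1 of line 3, so the 2 lines are the only replicates. The labels do not say whether the lines came from separate mice. Lentiviral Cre is not restricted to a cell type, and the oncogene and the change of medium cannot be told apart. Labels conflict for 2 libraries, and their titles were followed: the BrafV600E library of line 1 has line 3 in another field, and the 14-month library carries a 2-month tag.

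Hox genes encode homeodomain transcription factors that give cells their position along the head-to-tail axis. Their order on the chromosome follows the order in which they are used along that axis. Genes at the same place in different clusters are paralogs and share a number, with low numbers used towards the head and numbers 9 to 13 towards the tail. The hindgut, from which the distal colon forms, depends on the tail-end genes, Hoxa13 and Hoxd13 among them. In cells that do not use them, Hox clusters are covered by Polycomb repression, and their CpG islands are common sites of methylation gain in cultured and tumour cells.

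The authors' deposited tables give, for each within-line comparison of 1 library with 1 library, only tiles with a difference of 20 points or more and a q-value up to 0.01, a point being 1 percentage point of methylation. A tile that gained was higher in BrafV600E organoids than in EV organoids, or higher in long-cultured EV organoids than in EV organoids at 2 months, and a tile that lost was lower. No read counts accompany the differences, so the depth behind a tile is unknown and no interval can be given for it. A tile outside a list may have differed by less or may not have been covered. Expression is not in these tables, so neither the colon identity of the organoids nor the RNA of any Hox gene could be checked here. The lists held 15305 tiles for line 1 and 29949 for line 3 with BrafV600E, and 8263 tiles for line 1 and 21524 for line 3 with long culture.

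The promoter windows of 6 Hoxd genes overlapped a gained tile in both lines of a comparison, and these carry the pattern described below. The windows run from 250 bases before to 50 bases after the start site in the RefSeq table of GRCm38.p6, on the forward strand of chromosome 2, with each CpG in capitals. They lie at chr2:74667975-74668274 (Hoxd13), chr2:74674763-74675062 (Hoxd12), chr2:74682073-74682372 (Hoxd11), chr2:74697513-74697812 (Hoxd9), chr2:74704365-74704664 (Hoxd8) and chr2:74762730-74763029 (Hoxd1).
Hoxd13: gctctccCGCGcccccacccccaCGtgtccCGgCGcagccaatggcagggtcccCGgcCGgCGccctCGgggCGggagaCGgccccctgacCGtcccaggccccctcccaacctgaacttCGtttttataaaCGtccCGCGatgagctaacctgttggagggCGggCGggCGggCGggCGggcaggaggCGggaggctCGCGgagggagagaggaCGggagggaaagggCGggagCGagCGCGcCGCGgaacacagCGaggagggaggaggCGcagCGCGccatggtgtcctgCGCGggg
Hoxd12: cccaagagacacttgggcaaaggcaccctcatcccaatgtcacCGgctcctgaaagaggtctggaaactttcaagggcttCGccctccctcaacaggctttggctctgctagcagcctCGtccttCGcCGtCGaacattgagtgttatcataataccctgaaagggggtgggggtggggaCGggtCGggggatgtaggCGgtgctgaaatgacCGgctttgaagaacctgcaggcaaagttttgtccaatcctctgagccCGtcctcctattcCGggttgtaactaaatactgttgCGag
Hoxd11: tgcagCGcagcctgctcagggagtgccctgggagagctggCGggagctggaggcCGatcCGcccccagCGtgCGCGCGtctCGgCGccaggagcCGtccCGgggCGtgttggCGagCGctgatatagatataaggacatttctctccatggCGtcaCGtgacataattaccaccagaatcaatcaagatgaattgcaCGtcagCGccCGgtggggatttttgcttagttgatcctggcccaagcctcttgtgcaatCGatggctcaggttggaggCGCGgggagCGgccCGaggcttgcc
Hoxd9: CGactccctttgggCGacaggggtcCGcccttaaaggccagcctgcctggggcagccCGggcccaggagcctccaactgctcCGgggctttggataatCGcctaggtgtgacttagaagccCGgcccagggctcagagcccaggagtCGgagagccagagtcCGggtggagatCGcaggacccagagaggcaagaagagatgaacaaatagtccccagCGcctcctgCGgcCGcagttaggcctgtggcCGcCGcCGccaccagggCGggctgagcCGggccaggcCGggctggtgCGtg
Hoxd8: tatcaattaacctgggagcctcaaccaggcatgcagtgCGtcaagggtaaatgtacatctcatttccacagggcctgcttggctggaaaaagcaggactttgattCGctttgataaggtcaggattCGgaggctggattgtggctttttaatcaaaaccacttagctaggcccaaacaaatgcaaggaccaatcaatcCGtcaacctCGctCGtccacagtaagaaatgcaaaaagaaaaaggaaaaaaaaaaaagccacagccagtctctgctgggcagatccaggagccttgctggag
Hoxd1: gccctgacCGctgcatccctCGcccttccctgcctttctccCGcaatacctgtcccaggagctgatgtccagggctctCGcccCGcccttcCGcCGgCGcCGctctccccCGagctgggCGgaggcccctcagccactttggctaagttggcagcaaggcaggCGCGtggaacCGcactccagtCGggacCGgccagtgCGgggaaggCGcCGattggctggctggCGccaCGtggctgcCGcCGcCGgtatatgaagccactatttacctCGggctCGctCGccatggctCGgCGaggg
The Hoxd13 window holds 37 CpGs, Hoxd1 29, Hoxd11 25, Hoxd9 20, Hoxd12 13 and Hoxd8 6. The median of all 32851 promoter windows of this length is 7 CpGs, and 5.58% of them hold as many as Hoxd13. The number of CpGs therefore differed several-fold among these windows. The gained tile at Hoxd8 overlaps its window without covering any of its CpGs. Over all 24 Hox windows in that table, which belong to 22 of the 38 genes, the median was 14.5 CpGs, between 4 and 45. The letters CCGG, which read the same on both strands and are the site of MspI, the enzyme most often used for this assay, occur in 19 of the 24 Hox windows and in 52.8% of all windows.

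In BrafV600E organoids, gained tiles overlapped the promoter windows of Hoxd12, Hoxd11, Hoxd9, Hoxd8 and Hoxd1 in both lines. That is 5 of 24 Hox windows, against 1.34% of all windows. At Hoxd8 the overlapping tile, chr2:74704601-74704800, covers no CpG of the printed window, so its gain lay at CpGs outside that window. With long culture the windows of Hoxd13, Hoxd12, Hoxd11 and Hoxa11 overlapped gained tiles in both lines, that is 4 of 24 against 1.09%. No Hox promoter window lost methylation in both lines of either comparison. The share of all windows that did so is not given here, so this is not read as a trait of Hox windows. The product of Hoxd1 acts in sensory neurons of the mouse. With BrafV600E the Hoxd1 tile with the start site gained 24.2 points (line 1) and 38.2 points (line 3) in the authors' deposited tables. The next tile, which overlaps only the end of the window, gained 76.3 points (line 1) and 55.1 points (line 3) there. At Hoxd9 the tile with the start site gained 33.6 and 52.4 points in lines 1 and 3 with BrafV600E in the authors' deposited tables. The next tile, which overlaps only the end of the window, gained 47.5 and 52.6 points in lines 1 and 3. Hoxd11 is a regulator of limb and kidney development. Its tile with the start site gained 47.6 points at 12 months (line 1) and 63.0 points at 14 months (line 3). The promoter tile before it gained 66.6 points at 12 months and 79.9 points at 14 months, all in the authors' deposited tables. The Hoxd11 and Hoxd12 windows were the ones that overlapped gained tiles in both lines of both comparisons. For Hoxd12, which patterns the digits, the tile with the start site gained 41.6 points in line 1 with BrafV600E, 34.6 points at 12 months and 40.2 points at 14 months in the authors' deposited tables. In line 3 with BrafV600E the listed tile that overlaps the Hoxd12 window lay upstream, at chr2:74674601-74674800. It gained 69.6 points in the authors' deposited tables, but it covers no CpG of the printed window.

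Over the 4 clusters together, gains outnumbered losses in every comparison. BrafV600E organoids of line 1 had 96 Hox tiles that gained and 15 that lost, so that 86.5% of 111 gained, against 67.5% of all tiles listed in that comparison. In line 3, 92 gained and 37 lost, which is 71.3% of 129, against 40.4% of all listed tiles. After 12 months in line 1, 38 gained and 14 lost, which is 73.1% of 52, against 40.9% of all listed tiles. After 14 months in line 3, 114 gained and 13 lost, which is 89.8% of 127, against 71.9% of all listed tiles. In the comparisons where most listed tiles of the genome lost methylation, line 3 with BrafV600E and line 1 with long culture, most Hox tiles still gained. The typical gain was alike across comparisons, with medians of 39.1 and 42.4 points in lines 1 and 3 with BrafV600E and 40.9 and 45.4 points with long culture. Losses differed more, with medians of -33.5 and -58.1 points in lines 1 and 3 with BrafV600E and -29.8 and -34.5 points with long culture.

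**Figure D1:**
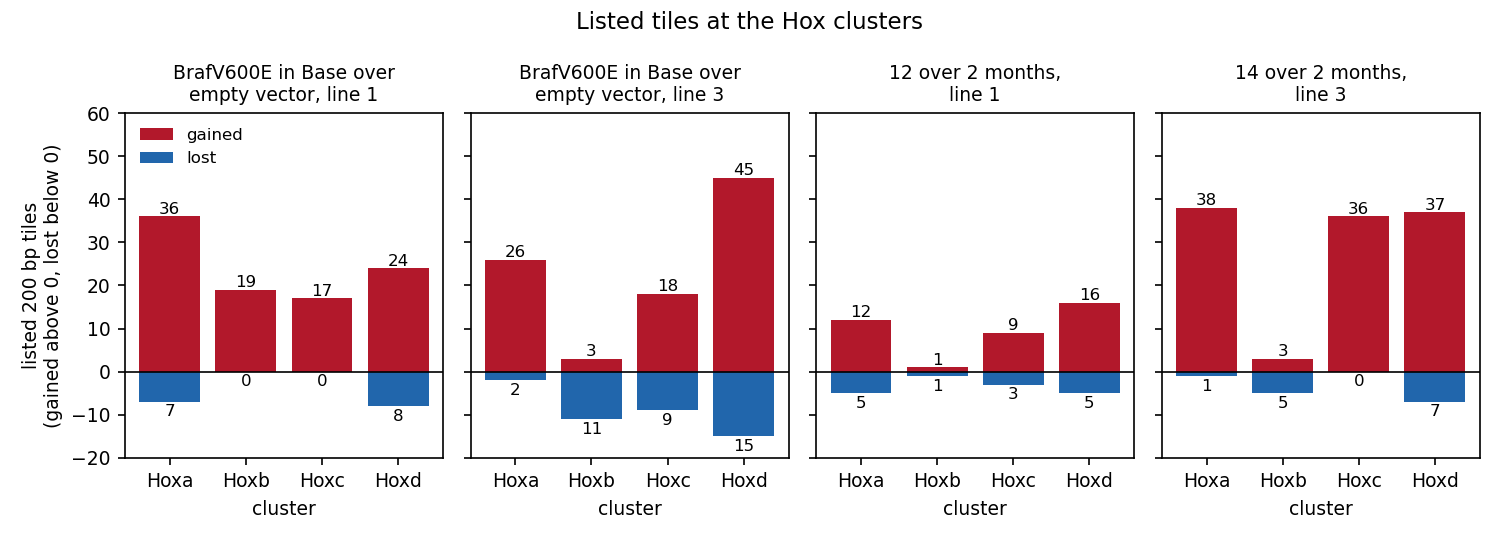
Number of listed 200 bp tiles per Hox cluster in each within-line comparison, gained tiles above 0 and lost tiles below 0. Hoxa, Hoxc and Hoxd gained more tiles than they lost in every comparison, while Hoxb gained 19 and lost 0 in line 1 but gained 3 and lost 11 in line 3 with BrafV600E.

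Listed tiles were also dense at these clusters. Hox windows held 29.5 and 34.3 listed tiles per 100 kb in lines 1 and 3 with BrafV600E and 13.8 and 33.7 with long culture. The windows of all protein-coding genes held 0.993 and 1.67 per 100 kb with BrafV600E and 0.531 and 1.41 with long culture. Hox genes are short, with a median window of 7.72 kb against 21.2 kb for all genes, and their promoters hold more CpGs than the median promoter, as given above. The part of either in the density was not tested.

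Of the 38 genes, 20 had a gained tile in both lines with BrafV600E, against 11.3% of all protein-coding genes, and 17 had a gained tile in both lines with long culture, against 6.5%. A lost tile in both lines was found at 4 genes with BrafV600E (Hoxa3, Hoxd3, Hoxd10 and Hoxd11), against 6.07% of all genes, and at 3 genes with long culture (Hoxb13, Hoxd9 and Hoxd10), against 4.07%. Gains were thus far more frequent than in the background, and losses stood nearer to it. The tail-end genes of paralog groups 9 to 13 supplied 11 of the 20 genes with BrafV600E and 12 of the 17 with long culture, out of 16 such genes. Groups 4 to 8 supplied 5 and 2 of 15 genes, and groups 1 to 3 supplied 4 and 3 of 7. These counts were not tested against each other, and neighbouring genes with overlapping windows count the same tiles. Among the tail-end genes, Hoxb9 and Hoxb13 gained in both lines of neither comparison. Other homeobox and paired-box families also had gained tiles in both lines. This held for 13 of 14 Nkx genes with BrafV600E and 12 with long culture, and for 6 and 7 of 9 Pax genes. A lost tile in both lines was found at 3 of 9 Pax genes with BrafV600E and 4 with long culture, and at 1 and 2 Nkx genes. A gain in both lines was therefore not particular to Hox genes. Hox genes with a listed tile in all 4 comparisons numbered 18, and Hoxa2, Hoxb4, Hoxb6, Hoxb7 and Hoxb8 had none in any. Overlapping windows count the same tiles here too, and the matching shares of all protein-coding genes were not computed. A listed tile in at least 1 line was found at 31 of the 38 genes in either comparison. Of all protein-coding genes this held for 38.3% with BrafV600E and 31.3% with long culture.

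**Figure D2:**
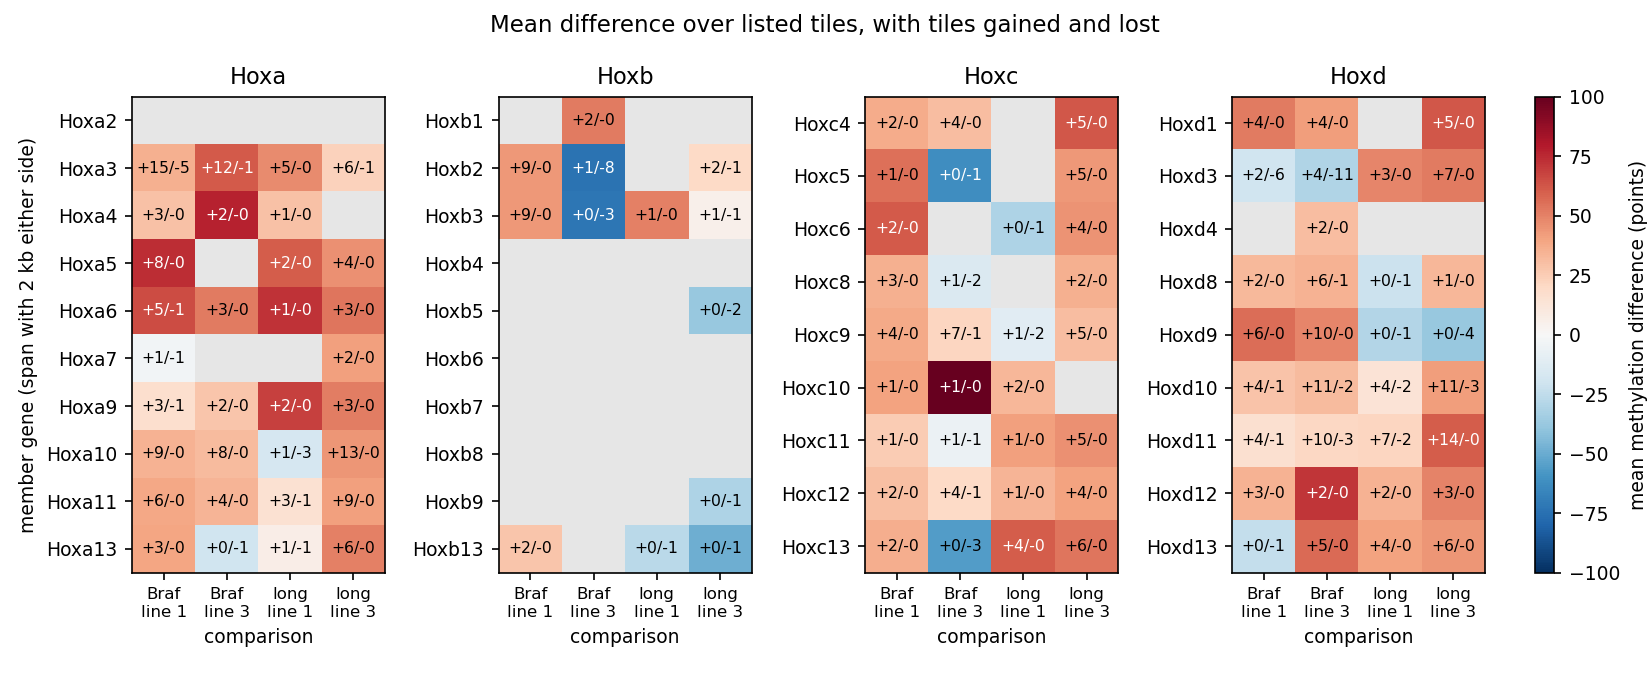
Mean methylation difference in percentage points over the listed tiles of each Hox gene in the 4 within-line comparisons, with the number of tiles gained and lost in each cell and grey where none was listed. Hoxa10 and Hoxd9 gained in both BrafV600E lines, Hoxb2 and Hoxb3 changed in opposite directions in lines 1 and 3, and the middle of the Hoxb cluster is mostly grey.

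The Hoxd cluster, on chromosome 2, gave the most tiles and the closest likeness between lines. BrafV600E organoids gained 24 and lost 8 Hoxd tiles in line 1 and gained 45 and lost 15 in line 3, and of 25 tiles listed in both lines 23 moved the same way. Hoxd9, a posterior gene used in limb and spinal cord patterning, gained at 6 tiles in line 1 and 10 tiles in line 3. The 6 tiles of line 1 form an unbroken run at chr2:74697601-74698800, which begins at the start site and runs into the annotated span, and the same 6 tiles gained in line 3. Across that run, the authors' deposited table of line 1 gives gains of 33.6, 47.5, 59.7, 53.3, 78.6 and 63.4 points. The authors' deposited table of line 3 gives gains of 52.4, 52.6, 80.6, 51.5, 39.9 and 20.3 points for the same tiles. Each tile of the run gained in both lines, although the largest gain fell on different tiles. Averaged over all its listed tiles, Hoxd9 gained 56.0 points in line 1 and 49.0 points in line 3.

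The neighbours of Hoxd9 also had gained tiles with BrafV600E, beside some lost ones. Hoxd10, which helps specify lumbar motor neurons, had a gained tile at chr2:74691401-74691600, where the authors' deposited tables give 70.9 points (line 1) and 78.7 points (line 3). The nearby tile at chr2:74691001-74691200 gained by 49.5 points (line 1) and 66.2 points (line 3) in the authors' deposited tables. Hoxd8 gained at 2 tiles in line 1, by 33.3 and 30.9 points, and at a run of 6 tiles at chr2:74704601-74705800 in line 3, by 35.9 to 64.6 points, in the authors' deposited tables. Hoxd8 thus gained over a longer stretch in line 3, where it also had a tile of -84.8 points, at chr2:74704001-74704200, in the authors' deposited table. For Hoxd10 the authors' deposited tables also list losses, at 1 tile in line 1 of -33.5 points and at 2 tiles in line 3 of -67.9 and -61.6 points. These tiles count for Hoxd11 as well. Hoxd1 gained at the same 4 adjoining tiles, chr2:74762801-74763600, in both lines, with means of 52.1 points in line 1 and 41.5 points in line 3. Hoxd12 gained at 3 tiles in line 1 (mean 34.7 points) and 2 tiles in line 3 (mean 71.4 points).

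Hoxd3, needed for the first neck vertebrae, stood out among Hoxd genes by its losses. With BrafV600E it lost methylation at 6 tiles in line 1 (mean -43.6 points) and at 11 tiles in line 3 (mean -51.7 points). It also gained at 2 tiles in line 1 and 4 tiles in line 3, so that all its listed tiles averaged -19.6 points in line 1 and -29.9 points in line 3. The losses of line 3 lie at chr2:74732601-74741200, inside the annotated span of Hoxd3. At chr2:74739801-74740000 the authors' deposited tables give differences of -77.6 points (line 1) and -67.6 points (line 3). All 5 Hox tiles that lost methylation in both BrafV600E lines lay in this stretch. Just beyond the span, a tile at chr2:74749801-74750000 gained 34.5 points (line 1) and 36.7 points (line 3) by the authors' deposited tables, opposite in direction to the stretch of losses. Hoxd4, which lies within the annotated span of Hoxd3, had 2 gained tiles in line 3, of 32.3 and 29.8 points by the authors' deposited table, and none listed in line 1.

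At 12 months line 1 had 16 Hoxd tiles gained and 5 lost, at 14 months line 3 had 37 gained and 7 lost, and 15 of 17 tiles listed in both lines moved the same way. Hoxd11 was the centre of the gains. In line 3 an unbroken run of 9 tiles at chr2:74681601-74683400 gained 46.8 to 95.4 points, and in line 1 a run of 5 tiles at chr2:74681601-74682600 gained 35.4 to 66.6 points, in the authors' deposited tables. Both runs cover the Hoxd11 promoter sequence printed above. With BrafV600E the same stretch gained 22.0 and 25.3 points at 2 tiles of line 1 and 26.5 to 49.8 points over a run of 7 tiles of line 3 in the authors' deposited tables. Windows overlap here, so tiles from chr2:74682201 onwards also count for Hoxd10. Hoxd13, the gene nearest the tail end of the cluster, gained at 4 tiles in line 1 (mean 40.4 points) and 6 tiles in line 3 (mean 44.1 points) with long culture. With BrafV600E Hoxd13 had a single tile of -24.1 points in line 1 but 5 tiles of 29.1 to 78.5 points in line 3 in the authors' deposited tables, so its lines went opposite ways. Hoxd1 gained at 5 tiles at 14 months (mean 62.1 points) and had none listed at 12 months.

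Hoxd9 and Hoxd3 were the genes whose listed tiles mostly gained in both lines of a comparison and mostly lost in both lines of the other. Hoxd9, which only gained with BrafV600E, only lost with long culture, by -29.0 points at 1 tile in line 1 and by a mean of -38.2 points at 4 tiles in line 3. The authors' deposited table of line 3 gives -24.3, -26.5, -58.7 and -43.4 points for them, and all 4 tiles had gained in BrafV600E organoids of that line. Hoxd10 shared this at chr2:74691001-74691200, which differed by -40.7 points at 12 months and -27.1 points at 14 months in the authors' deposited tables. Hoxd3 showed the reverse in most of its listed tiles. It gained with long culture at 3 tiles in line 1 (mean 48.5 points) and 7 tiles in line 3 (mean 52.0 points). At chr2:74733401-74733600 the authors' deposited tables give -41.2 and -49.1 points in lines 1 and 3 with BrafV600E, and 31.3 and 63.6 points with long culture. BrafV600E organoids were set against EV organoids at 5 months and long-cultured ones against EV organoids at 2 months, so the comparisons share no library but share their lines.

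**Figure D3:**
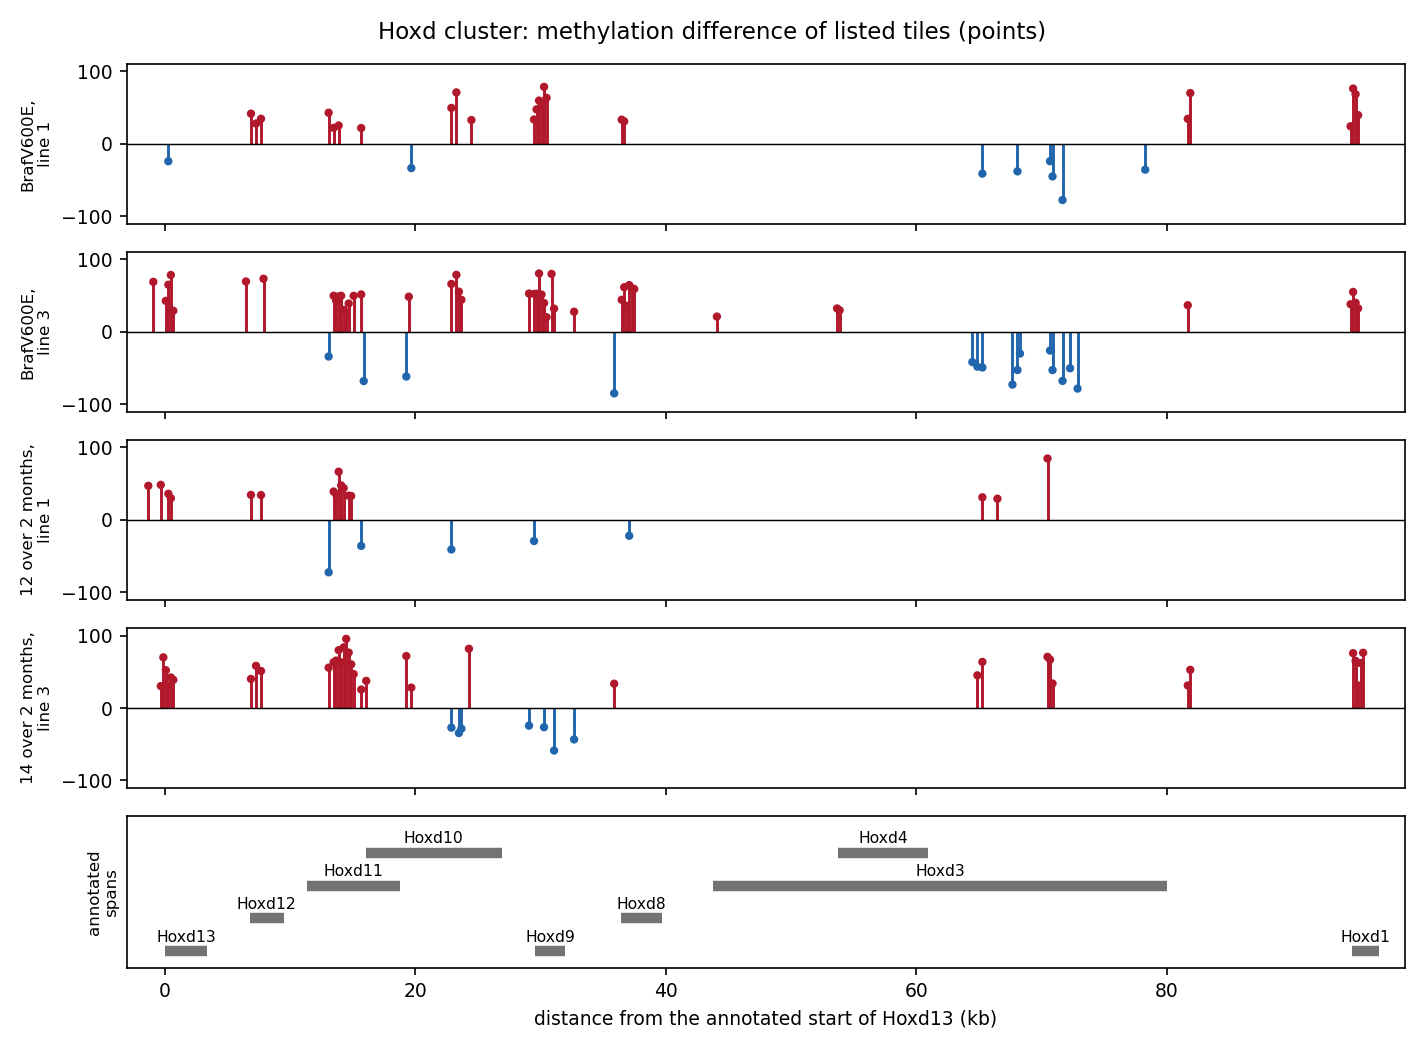
Methylation difference in percentage points of each listed tile along the Hoxd cluster, by distance in kb from the annotated start of Hoxd13, in the 4 within-line comparisons, with annotated gene spans below. Tiles at Hoxd9 gained in both BrafV600E lines and lost with long culture, most listed tiles inside Hoxd3 lost with BrafV600E and gained with long culture, and Hoxd11 gained most at 14 months, by up to 95.4 points.

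The Hoxa cluster, on chromosome 6, gained 36 and lost 7 tiles in line 1 and gained 26 and lost 2 in line 3 with BrafV600E, and 12 of 16 tiles listed in both lines moved the same way. Hoxa10, required for a working uterus, gained at 9 tiles in line 1 (mean 34.8 points, 21.0 to 55.7) and 8 tiles in line 3 (mean 32.0 points, 23.1 to 41.9) and lost at none. Hoxa11, which acts in limb, kidney and uterus, gained at 6 tiles in line 1 (mean 39.0 points) and 4 tiles in line 3 (mean 33.9 points). These posterior genes were thus alike in both lines with moderate gains. Larger gains lay towards the head end. At chr6:52175601-52176200, inside the span of Hoxa3, which is needed for thymus and parathyroid, 3 tiles gained 70.8, 66.7 and 35.4 points in line 1 and 91.1, 71.6 and 87.1 points in line 3 in the authors' deposited tables. Hoxa3 has an annotated span that reaches over Hoxa4, Hoxa5 and Hoxa6, so tiles there count for more than 1 gene. In all it gained at 15 and lost at 5 tiles in line 1, and gained at 12 and lost at 1 tile in line 3. Hoxa5, which is needed for lung and gut maturation, gained at 8 tiles in line 1, and at chr6:52203801-52204400 by 91.8, 96.9 and 99.4 points in the authors' deposited tables. In line 3 no tile of Hoxa5 was listed, so no tile of this large gain was listed in the other line. Hoxa6, whose window shares these tiles, gained at 5 and lost at 1 tile in line 1 (mean 65.2 points) and gained at 3 tiles in line 3 (mean 52.3 points). Hoxa4 gained at 3 tiles in line 1 (mean 29.1 points) and 2 tiles in line 3 (mean 76.6 points), and Hoxa7 had 1 gained and 1 lost tile in line 1 only.

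With long culture the lines differed in Hoxa. At 14 months line 3 gained 38 Hoxa tiles and lost 1, at 12 months line 1 gained 12 and lost 5, and 6 of 11 tiles listed in both lines moved the same way. Hoxa10 gained at 13 tiles in line 3 (mean 44.2 points), while in line 1 it gained at 1 tile and lost at 3, with differences between -84.0 and 66.7 points in the authors' deposited tables. Hoxa11 gained at 9 tiles in line 3 (mean 41.3 points) and at 3 of its 4 listed tiles in line 1. The Hoxa11 tile at chr6:52244601-52244800 gained in all 4 comparisons, by 25.2 and 39.7 points in lines 1 and 3 with BrafV600E and by 27.8 and 31.0 points with long culture, in the authors' deposited tables. Hoxa13, a tail-end gene of hindgut and limb, gained at 6 tiles in line 3 (mean 50.5 points) and had 1 gained and 1 lost tile in line 1. With BrafV600E Hoxa13 gained at 3 tiles in line 1 and lost at 1 tile in line 3, just past the 20-point limit of listing. Hoxa9, a regulator of blood progenitors, gained at 2 tiles in line 1 (mean 68.3 points) and 3 tiles in line 3 (mean 51.5 points) with long culture.

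**Figure D4:**
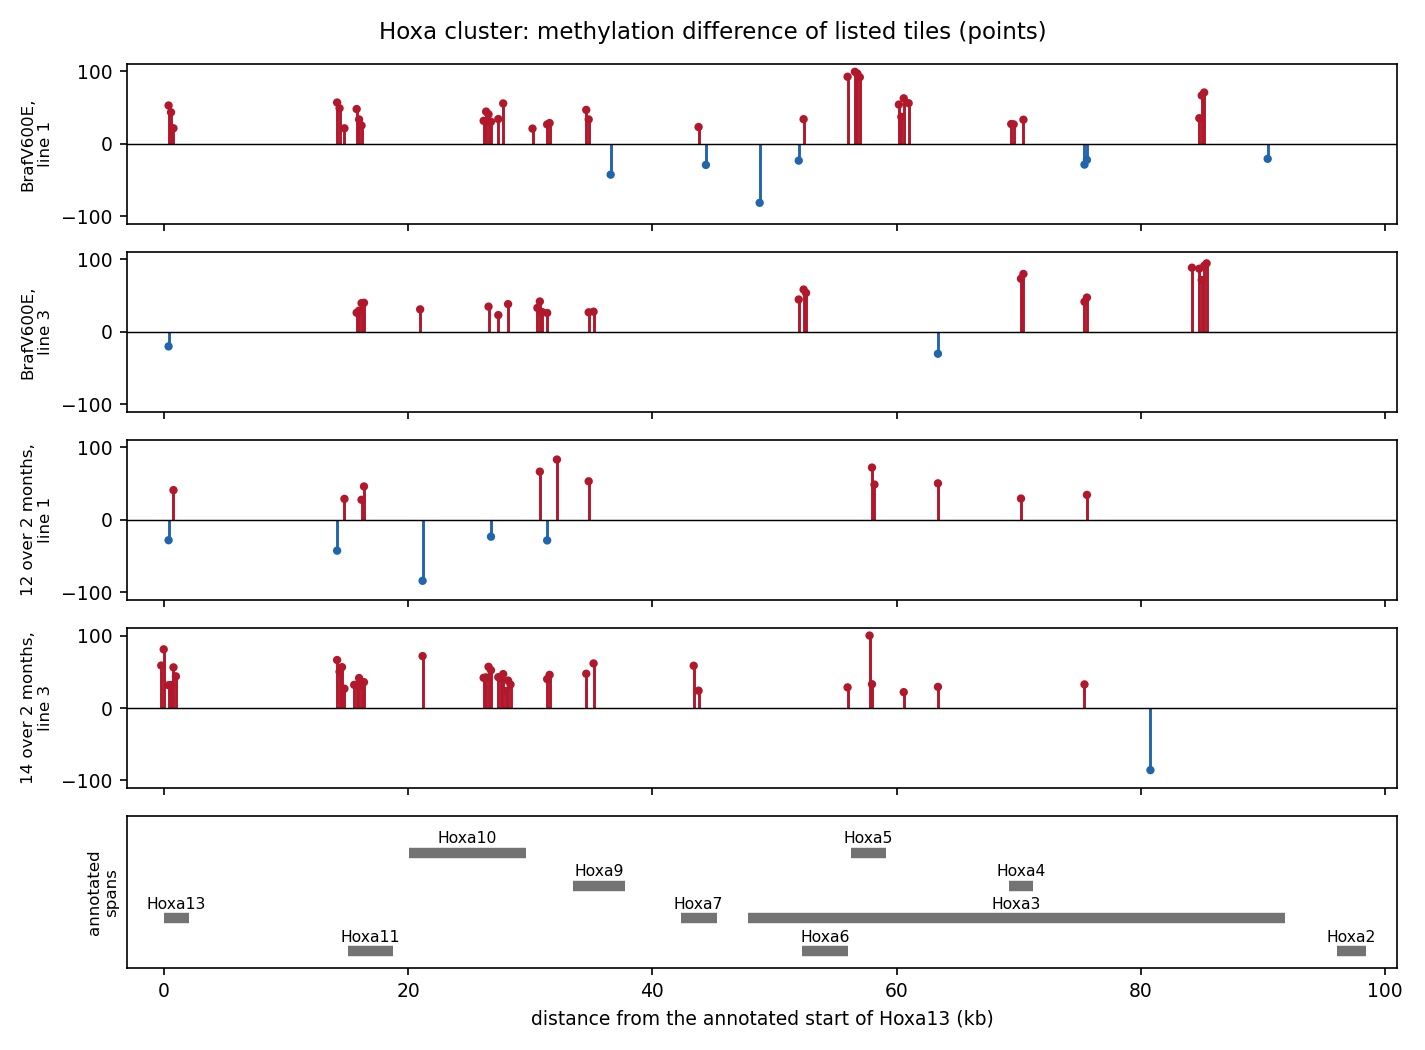
Methylation difference in percentage points of each listed tile along the Hoxa cluster, by distance in kb from the annotated start of Hoxa13, in the 4 within-line comparisons, with annotated gene spans below. Hoxa10 and Hoxa11 gained in both BrafV600E lines and at 14 months, and the 3 tiles of Hoxa5 that gained 91.8 to 99.4 points in line 1 with BrafV600E were listed in no other comparison.

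The Hoxb cluster, on chromosome 11, was changed at few genes, and there the lines went opposite ways. With BrafV600E line 1 gained 19 Hoxb tiles and lost 0, and line 3 gained 3 and lost 11. Of the 9 tiles listed in both lines, 8 gained in line 1 and lost in line 3. The BrafV600E library of line 1 is the one with line 3 in another label field, so the directions in this block rest on its title, and the part of that label conflict was not tested. The block lies at Hoxb2 and the neighbouring end of Hoxb3, genes that pattern the hindbrain. Hoxb2 gained at 9 tiles in line 1 (mean 43.2 points, 26.1 to 78.3), while in line 3 it lost at 8 tiles (mean -86.8 points, -100 to -67.2) and gained at 1 tile. Hoxb3 gained at 9 tiles in line 1 (mean 43.7 points) and lost at 3 tiles in line 3 (mean -72.2 points). At chr11:96352601-96352800, inside Hoxb2, the authors' deposited tables give a gain of 78.3 points for line 1 and a difference of -78.6 points for line 3. Arithmetic on these differences bounds the levels: in line 1 this tile was at least 78.3% methylated in BrafV600E organoids and at most 21.7% in EV organoids, and in line 3 at most 21.4% in BrafV600E organoids and at least 78.6% in EV organoids. By these bounds the BrafV600E organoids of line 1 lay with the EV organoids of line 3, and the BrafV600E organoids of line 3 with the EV organoids of line 1. As labelled, the EV organoids of the 2 lines at 5 months differed there by at least 56.9 points. Such a gap between EV organoids followed from the differences at 7 of the 16 Hox tiles that moved oppositely with BrafV600E, and all 7 lie at Hoxb2 or Hoxb3.

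The remaining Hoxb genes showed little. Hoxb1, used in the hindbrain, gained at 2 tiles in line 3, by 52.8 and 51.5 points in the authors' deposited tables. Hoxb13, a tail-end gene of prostate and distal gut, gained at 2 tiles in line 1 with BrafV600E, by 33.5 and 21.8 points in the authors' deposited tables. It lost at 1 tile in each line with long culture, at different tiles, with differences of -26.8 points (line 1) and -48.9 points (line 3) in the authors' deposited tables. Hoxb5 lost at 2 tiles and Hoxb9 at 1 tile at 14 months. Over the whole cluster long culture listed 2 tiles in line 1 and 8 in line 3, with none in common.

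**Figure D5:**
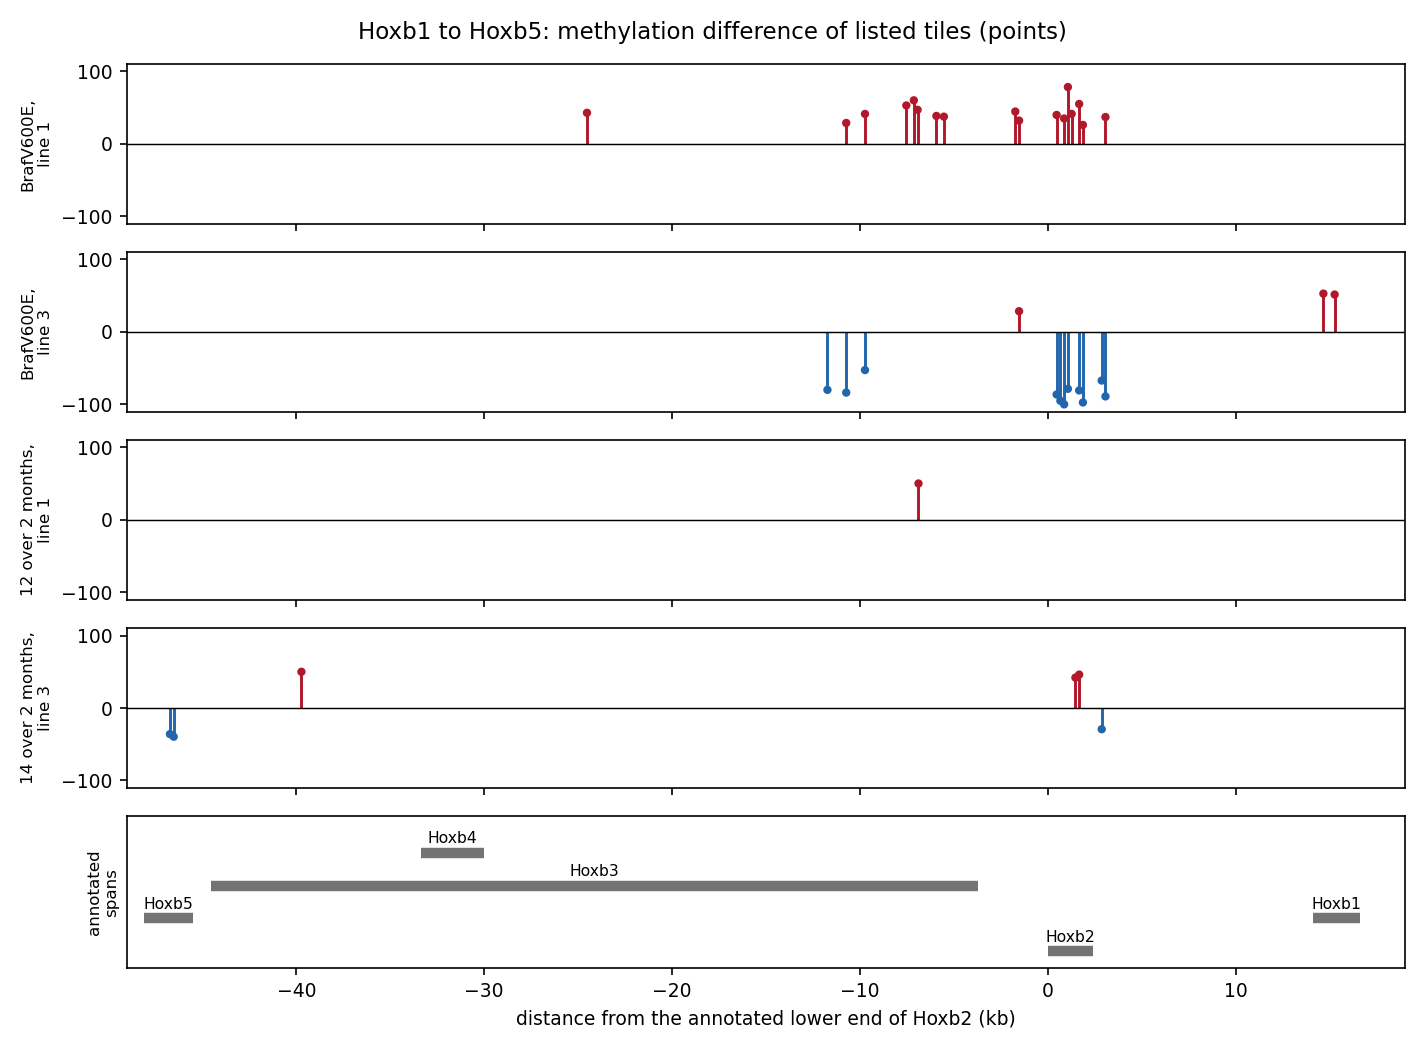
Methylation difference in percentage points of each listed tile from Hoxb5 to Hoxb1, by distance in kb from the lower annotated end of Hoxb2, in the 4 within-line comparisons, with annotated gene spans below. With BrafV600E the tiles around Hoxb2 and the adjoining end of Hoxb3 gained in line 1 and lost in line 3, down to -100 points, and few tiles were listed with long culture.

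In the Hoxc cluster, on chromosome 15, line 1 gained 17 tiles and lost 0 with BrafV600E, while line 3 gained 18 and lost 9. Hoxc9, which sets thoracic identity in the spinal cord, gained at 4 tiles in line 1 (mean 38.1 points) and at 7 tiles in line 3 (mean 32.4 points), where 1 tile also lost. With long culture Hoxc9 gained at 5 tiles in line 3 (mean 30.7 points) and at 1 of 3 listed tiles in line 1. Hoxc4 gained at 2 tiles in line 1 (mean 36.9 points) and 4 tiles in line 3 (mean 30.8 points) with BrafV600E, and at 5 tiles at 14 months (mean 62.1 points), with none listed at 12 months. Hoxc13, which controls hair keratin genes, differed between the lines with BrafV600E, gaining at 2 tiles in line 1 (mean 36.2 points) and losing at 3 tiles in line 3 (mean -55.6 points). With long culture Hoxc13 gained in both lines, at 4 tiles in line 1 (mean 60.8 points) and 6 tiles in line 3 (mean 53.7 points). Hoxc12 gained at 2 tiles in line 1 (mean 30.3 points) and at 4 of 5 listed tiles in line 3 with BrafV600E (mean of all 5 tiles 20.2 points). Hoxc10, which acts in hindlimb motor neurons, gained at 1 tile in each line with BrafV600E, at different places, by 40.1 points in line 1 and 100 points in line 3 in the authors' deposited tables. Hoxc5 gained at 1 tile in line 1 and lost at 1 tile in line 3, and Hoxc6 gained at 2 tiles in line 1 with none listed in line 3. Long culture gained 36 Hoxc tiles and lost 0 in line 3, and gained 9 and lost 3 in line 1. Hoxc5, Hoxc6, Hoxc8, Hoxc11 and Hoxc12 gained at 2 to 5 tiles each at 14 months. Hoxc10 was the Hoxc gene with no listed tile in that comparison.

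Over all clusters, 57 tiles were listed in both lines with BrafV600E, which is 51.4% of the Hox tiles of line 1 and 44.2% of those of line 3. Of these, 36 gained in both lines, 5 lost in both, for 12 a gain in line 1 met a loss in line 3, and 4 went the other way round, so 71.9% had the same direction, against 73.9% of all tiles listed in both lines. With long culture 34 tiles were listed in both lines, which is 65.4% of the Hox tiles of line 1 and 26.8% of those of line 3. Of these, 24 gained in both, 1 lost in both and 9 lost in line 1 but gained in line 3, so 73.5% had the same direction, against 68.5% of all such tiles. Over all tiles, those listed in both lines made up 38.8% of the line 1 list and 19.8% of the line 3 list with BrafV600E, and 39.0% and 14.96% with long culture. Hox tiles were thus listed in both lines at higher shares than all tiles, while the share with the same direction was close to that of all tiles. Direction was uneven among clusters. With BrafV600E the share with the same direction was highest at Hoxd (92%) and lowest at Hoxb (11.1%). With long culture it was highest at Hoxd (88.2%) and lowest at Hoxa (54.5%), and Hoxb had no tile listed in both lines. With 2 lines no test over replicates could reach significance, so these are counts and not tests.

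Within line 1, 25 Hox tiles were listed both with BrafV600E and with long culture, and 10 of them gained in both, 12 gained with BrafV600E and lost with long culture, and 3 did the reverse. Over all tiles of line 1, 2384 were listed in both, of which 847 gained in both, 928 gained with BrafV600E and lost with long culture, and 291 did the reverse. The tiles in both lists made up 22.5% of the Hox tiles listed with BrafV600E in line 1, against 15.6% over all tiles, and 44.96% in line 3, against 23.3% over all tiles. In line 3, 58 Hox tiles were listed in both, of which 35 gained in both, 15 lost with BrafV600E and gained with long culture, and 7 did the reverse. Over all tiles the counts in line 3 were 2783 gained in both, 2419 lost with BrafV600E and gained with long culture, and 929 the reverse, of 6964. Of the 236 Hox tiles, 111 were listed in 1 comparison and 11 in all 4. The same counts over all tiles were not computed, so these are not read as a trait of Hox tiles. The 3 tiles that gained in all 4 comparisons were the Hoxa11 tile above and, at Hoxd11, those at chr2:74681601-74681800 and chr2:74682001-74682200.

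In Hoxa and Hoxd, where the RefSeq promoter table gives a start for 18 of 19 genes, gained tiles with BrafV600E lay near start sites more often than lost ones. Within 1 kb of a start lay 37 of 60 gained tiles and 3 of 15 lost tiles in line 1, and 44 of 71 gained and 2 of 17 lost in line 3. With long culture the gained tiles were placed alike, 14 of 28 in line 1 and 43 of 75 in line 3, but 6 of 10 lost tiles in line 1 and 5 of 8 in line 3 were also within 1 kb of a start. Lost tiles were thus away from starts with BrafV600E, most of them inside Hoxd3 in line 3, and near starts with long culture, as at Hoxd9. Neighbouring tiles are not independent, so these shares have no interval.

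Hox proteins bind DNA together with TALE homeodomain cofactors, among them Meis and Pknox proteins. Cofactor genes with a gained tile in both lines included Meis1, Meis2, Pbx2 and Pknox2 with BrafV600E, and Meis1 and Meis2 with long culture. Meis2 gained at 10 tiles in line 1 (mean 75.2 points) and 6 tiles in line 3 (mean 52.4 points) with BrafV600E. Meis1 also had a lost tile in both lines of each comparison. With BrafV600E Pknox2 gained at 2 tiles in line 1 but had 3 gained and 7 lost tiles in line 3 (mean -17.8 points). Of all protein-coding genes, 11.3% had a gained tile in both lines with BrafV600E and 6.5% with long culture. With long culture Meis2 gained at 3 tiles in line 1 (mean 54.0 points), and at 8 of its 9 listed tiles in line 3 (mean of all listed tiles 60.2 points). The list of 18 upstream regulators itself holds many retinoic acid genes. Of the 18, Aldh1a2, which makes retinoic acid, and Cyp26a1 and Cyp26b1, which degrade it, had a gained tile in both BrafV600E lines. So had the retinoic acid receptor gene Rarb and Cdx1, a homeobox activator of Hox genes. Cyp26b1 gained at 8 tiles in line 1 (mean 58.8 points) and 11 tiles in line 3 (mean 58.7 points). The 5 genes that gained in both BrafV600E lines compare with 11.3% of all protein-coding genes. Cyp26a1 had 1 gained and 1 lost tile in line 1 (mean -6.96 points) and 1 gained and 8 lost tiles in line 3 (mean -29.9 points), so its losses prevailed. A lost tile in both BrafV600E lines was found at 5 of the 18, against 6.07% of all protein-coding genes, namely Cyp26a1, Cyp26c1, Rara, Rarb and Rarg, the last 3 encoding retinoic acid receptors, Rarg at 2 tiles each with means of -77.7 points in line 1 and -69.0 points in line 3. With long culture Aldh1a2, Cyp26a1, Cyp26b1 and Cyp26c1 had a gained tile in both lines. These were 4 of the 18, against 6.5% of all protein-coding genes. Losses prevailed at Cyp26a1 in line 1, with 1 gained and 3 lost tiles (mean -18.9 points). In line 3 it had 10 gained and 0 lost (mean 42.3 points), and Cyp26b1 had 7 gained and 1 lost. Cbx7, a Polycomb subunit, and Rarb had a lost tile in both long-culture lines, 2 of the 18 against 4.07%. Rarb also had 5 gained tiles in line 3 (mean of all listed tiles 38.9 points). Of the Polycomb and Trithorax genes, Bmi1, Rnf2, Suz12 and Kmt2a had no listed tile in any comparison, and neither had Gmnn, which encodes geminin. Other Polycomb genes on the list did have listed tiles. With BrafV600E, Ezh2 had 1 gained tile in line 3 (65 points) and Eed 1 gained tile in line 1 (38.2 points). Cbx2 had 1 lost tile in line 3 with long culture (-57.8 points). Cbx7 also had 1 lost tile in line 3 with BrafV600E (-20.5 points). Of the ParaHox genes, relatives of the Hox genes, Gsx2 and Pdx1 had a gained tile in both BrafV600E lines and Gsx1 with long culture. Pdx1 also had a lost tile in both BrafV600E lines, Gsx2 had 1 gained and 2 lost tiles in line 3 (mean -17.7 points), and Gsx1 had 1 gained tile in line 1 but lost at 4 tiles in line 3 with BrafV600E (mean -27.0 points).

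Of 10 flanking genes and cluster RNAs, Evx2 and Mir196b had a gained tile in both lines of both comparisons. Evx2 lies next to Hoxd13, and Mir196b between Hoxa9 and Hoxa10. The long noncoding RNA gene Hotair had a gained tile in both lines with long culture. The shares of all protein-coding genes were 11.3% with BrafV600E and 6.5% with long culture. Hotair also had 1 lost tile at 12 months, and with BrafV600E it had 1 gained tile in line 1 and 3 lost tiles in line 3 (mean -53.7 points). Mir196b also had a lost tile of -28.2 points at 12 months. Evx2 gained at 7 tiles in line 1 (mean 38.3 points) and had 2 gained and 2 lost tiles in line 3 with BrafV600E, and gained at 2 tiles in line 1 (mean 21.9 points) and 11 tiles in line 3 (mean 61.2 points) with long culture. The window of Mir196b held 3 gained tiles in line 1 (mean 25.5 points) and 4 in line 3 (mean 32.1 points) with BrafV600E, tiles that Hoxa9 or Hoxa10 also count. Its mature product is shown beside that of Mir196a-1 and Mir196a-2, which lie in Hoxb and Hoxc, because all 3 carry the same seed, bases 2 to 8, in capitals, from RefSeq (GRCm38.p6).
mmu-miR-196b-5p: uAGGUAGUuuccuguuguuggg
mmu-miR-196a-5p: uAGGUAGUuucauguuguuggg
These miRNAs are known to target Hox mRNAs, Hoxb8 among them. Mir196a-1 had no listed tile, and Mir196a-2 had 1 at 12 months, a gain of 38.5 points in the authors' deposited tables, so of the genes with this seed only Mir196b was listed in every comparison.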

How the data were processed

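Reduced representation bisulfite libraries were read as 50 bp single ends with about 10% phiX, per the labels' protocols. The build GRCm38 (mm10) and the tools methylKit 1.7.4, Bismark 0.14.3, Trim Galore 0.4.4 and FastQC 0.11.7 appear in the submitters' processing notes. The coverage minimum is not given in the sources used here, nor is read depth. Per the file headers, the 8 tables the authors deposited hold 200 bp tiles, each with its methylation difference in percent, p-value and q-value. The difference is read as first-named minus second-named library. Each table compares 1 library with 1 library, so a q-value speaks of that pair of libraries only, and the differences were used as deposited.

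Gene spans and promoter windows came from RefSeq tables of GRCm38.p6, which matched all 38 Hox genes and 22 of them with a promoter window. Without a gene model, exons and introns could not be separated. Tiles within a gene's span and 2 kb on either side were counted, with their means, by line (Python 3.11.15, pandas 2.3.3, numpy 2.4.6); overlap counting was tested on simulated data. Background shares are over all listed tiles, all protein-coding genes or all promoter windows. No p-value was computed, since each group has 2 libraries and the tables hold no counts. Genes described individually were, per comparison, the 10 with the most listed tiles in the poorer line (at least 3), genes whose direction turned between comparisons, and genes with no tile; others are named where a count needed them, after their values were seen. Promoters were ranked by the smaller gain of the lines. Alternatives were a difference of at least 40 points, a q-value under 0.001, windows of 0 or 5 kb, merging tiles within 500 bp and leaving out either line. The genes and lists were chosen with earlier results of these data known. Results for a further gene are not reported here.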

Additional observations from a re-analysis of the deposited data

Results flagged for a closer look

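By the sign of the mean over listed tiles, the lines moved in opposite directions at several Hox genes. In no case was the difference between lines tested. Those given here had 3 or more listed tiles in each line. With fewer tiles in a line, the signs were also opposite at Hoxa13, Hoxc5, Hoxc11, Hoxc13 and Hoxd13 with BrafV600E. The same held for Hoxc6 and Hoxd8 with long culture. With BrafV600E the Hoxb cluster averaged 41.7 points in line 1 (19 tiles) and -55.6 points in line 3 (14 tiles). The BrafV600E library of line 1 carries line 3 in another label field, and whether that bears on these opposite directions was not tested. Hoxb2 had 43.2 points in line 1 and -74.0 points in line 3, over 9 tiles each. Hoxb3 averaged 43.7 points in line 1 (9 tiles) and -72.2 points in line 3 (3 tiles). Hoxc8 had 35.2 points in line 1 and -14.3 points in line 3, over 3 tiles each. With long culture Hoxa10 averaged -17.2 points in line 1 (4 tiles) and 44.2 points in line 3 (13 tiles), and Hoxc9 -11.5 points in line 1 (3 tiles) and 30.7 points in line 3 (5 tiles). Within line 1 of Hoxa10 and Hoxc9 and line 3 of Hoxc8 and Hoxb2, single tiles went both ways.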

How the results depend on the processing

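No paired analysis was possible because each table already compares libraries within a line and gives no value per library. Of 48 alternative values, 38 stayed within 1.5 times the reported count or, for shares, within its binomial interval, and 10 moved further. That interval takes tiles as independent, which neighbouring tiles are not, so for shares it is no measure of stability. The same-direction share itself ran from 70.6% to 80% with BrafV600E and from 70% to 78.3% with long culture. Per line, on average, 94 Hox tiles gained and 26 lost with BrafV600E, and 76 gained and 13.5 lost with long culture. Counting only differences of at least 40 points gave 47.5 gained and 16.5 lost with BrafV600E and 44.5 gained and 4.5 lost with long culture, and reduced the genes that gained in both BrafV600E lines to 11. Merging tiles within 500 bp gave 40 gained and 15.5 lost regions with BrafV600E and 33.5 gained with long culture; fewer units are counted in both settings by construction. Leaving out either line gave 92 to 96 gained and 15 to 37 lost with BrafV600E, and 38 to 114 gained and 13 to 14 lost with long culture. Line 1 alone gave the 15 lost with BrafV600E and the 38 gained with long culture, and line 3 alone the 37 and the 114. The share of gains stayed between 72.1% and 79.5% with BrafV600E and between 77.0% and 90.8% with long culture across the thresholds, windows and merging.

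Depth per tile is unknown, so a tile outside a list cannot be called unchanged, which includes the middle of the Hoxb cluster. Windows of neighbouring genes overlap, so counts per gene do not add up to counts per cluster.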
